A study of Mus musculus with 4 samples.

Results

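Genes for 8 secreted proteins that modulate Wnt signalling were followed through mononuclear cells of dystrophic mouse muscle. They were the 4 secreted Frizzled-related proteins Sfrp1, Sfrp2, Sfrp4 and Frzb, the 2 Dickkopf genes Dkk2 and Dkk3, and the 2 R-spondins Rspo1 and Rspo3. The genes were picked by symbol, 8 of the 32285 in the count matrices, and each symbol had 1 row. Wnt proteins bind Frizzled receptors with the co-receptors Lrp5 or Lrp6. Frizzled-related proteins carry a Frizzled-like domain that binds Wnt outside the cell, and Dickkopf proteins of the Dkk2 type bind the co-receptors. R-spondins work the other way: through Lgr receptors they hold off the ligases Rnf43 and Znrf3, which otherwise remove Frizzled from the surface. In skeletal muscle these signals act between connective tissue cells and muscle stem cells, and canonical Wnt activity has been linked to fibrosis of dystrophic muscle.

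The groups were mdx5cv/Ccr2-/- diaphragm, mdx5cv diaphragm, mdx5cv/Ccr2-/- quadriceps and mdx5cv quadriceps, all from mice 14 weeks of age. All 4 carry the mdx5cv mutation, which removes dystrophin and gives a mouse model of Duchenne muscular dystrophy, so no group represents healthy muscle. The mdx5cv/Ccr2-/- mice also lack Ccr2, the chemokine receptor that lets classical monocytes leave bone marrow and enter injured tissue. The sources used here do not state how many animals went into a library, which part of Ccr2 is deleted, or the genetic background. Each group was 1 library of the droplet-based 10x Genomics 3′ assay, which counts captured transcripts as unique molecular identifiers (UMIs). No difference below therefore has a replicate check, no p-value is given, and every interval is a 95% interval for counting error only, without the spread between animals or cells.

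The libraries held between 56399477 and 92189580 UMIs each, and 28735 cells in all passed the filters. Ccr2 stood at 8.49 CPM (UMI counts per 1000000 UMIs) in mdx5cv/Ccr2-/- diaphragm against 136 CPM in mdx5cv diaphragm, and at 15.4 CPM in mdx5cv/Ccr2-/- quadriceps against 253 CPM in mdx5cv quadriceps. Between 38 and 72 barcodes of a library also occurred in another one. Cells were placed in 14 classes by marker genes, none of which is a described gene, and 4.27% to 8.31% of a library's cells stayed without a class. As a class, fibro-adipogenic progenitors and fibroblasts (FAP/fibroblast-like cells) detected all 8 of their markers, although a single cell needed only 3. Their macrophage and monocyte markers summed to between 70.6 and 103 CPM over the 4 libraries. In macrophage/monocyte-like cells the same marker list summed to at least 22081 CPM in each quadriceps library. The classes were set by these same markers, so the marker values follow from the gate and are no separate check of purity.

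On GRCm38 (GENCODE vM21), Sfrp1 (ENSMUSG00000031548) lies at chr8:23411502-23449632, Sfrp2 (ENSMUSG00000027996) at chr3:83766321-83774316 and Sfrp4 (ENSMUSG00000021319) at chr13:19623104-19632994, all on the plus strand. Frzb (ENSMUSG00000027004) lies at chr2:80411970-80447625 on the minus strand. Dkk2 (ENSMUSG00000028031) is at chr3:132085292-132180304 on the plus strand and Dkk3 (ENSMUSG00000030772) at chr7:112116017-112159057 on the minus strand. Rspo1 (ENSMUSG00000028871) is at chr4:124986430-125009099 on the plus strand and Rspo3 (ENSMUSG00000019880) at chr10:29452416-29535867 on the minus strand. Rspo3 shares its strand and span with 1 other annotated gene, Gm20276, so a read in the shared stretch could belong to either, and the other members overlap none on their strand.

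RefSeq start-site sequence (GRCm38.p6) was at hand for 4 of the 8 genes, and 2 promoters are shown here: that of Dkk2, lower in mdx5cv/Ccr2-/- fibroblasts of both muscles, and that of Rspo1, which separated diaphragm from quadriceps. Each is the 250 bases before the start site, 5′ to 3′ on the gene's own strand, at chr3:132085042-132085291 for Dkk2 and chr4:124986180-124986429 for Rspo1. Capitals mark matches on either strand to the TATA word TATAAA, the box CCAAT (which reads ATTGG on the opposite strand) or the GC box GGGCGG. The TCF/LEF-type word CTTTGAA and its variant ending in T, spelled CTTTGAT, were also searched.
Dkk2: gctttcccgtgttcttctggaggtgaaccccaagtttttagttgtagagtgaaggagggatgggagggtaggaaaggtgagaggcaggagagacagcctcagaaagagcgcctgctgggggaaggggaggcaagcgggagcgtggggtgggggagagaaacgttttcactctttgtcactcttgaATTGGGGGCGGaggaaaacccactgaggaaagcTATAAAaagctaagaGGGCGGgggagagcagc
Rspo1: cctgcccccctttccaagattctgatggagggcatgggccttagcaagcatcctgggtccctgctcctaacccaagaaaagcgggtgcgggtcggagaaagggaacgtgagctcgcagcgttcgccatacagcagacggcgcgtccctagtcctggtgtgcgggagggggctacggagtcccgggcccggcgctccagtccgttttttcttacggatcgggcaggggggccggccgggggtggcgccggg
The Dkk2 window held TATAAA, ending 26 bases before the start, as well as GGGCGG at 2 places and CCAAT once. The reverse-strand CCAAT abuts the more distant GGGCGG, so that both stand in 1 run of capitals. The Rspo1 window held none of the 5 words and was richer in G and C, at 66.8% against 55.6% for Dkk2 and a median of 52.4% over all 32851 entries. Of those entries, 12.4% held TATAAA, 33.8% CCAAT, 32.7% GGGCGG, 4.46% CTTTGAA and 3.21% CTTTGAT within the same 250 bases. These matches describe the letters of the windows only.

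All 8 genes were chiefly fibroblast transcripts. FAP/fibroblast-like cells held the largest part of each gene's UMIs in all 4 libraries. Those parts ran from 79.8% (Rspo1 in mdx5cv diaphragm) to 99.2% (Sfrp4 in mdx5cv diaphragm) in the diaphragm, and from 60.6% (Rspo1 in mdx5cv quadriceps) to 97.4% (Sfrp4 in mdx5cv quadriceps) in the quadriceps. The class counted 3998 cells in mdx5cv/Ccr2-/- diaphragm and 6604 in mdx5cv diaphragm, against 1568 in mdx5cv/Ccr2-/- quadriceps and 1059 in mdx5cv quadriceps. Transcripts of the 8 genes together made up 1076 CPM of fibroblast UMIs in mdx5cv/Ccr2-/- diaphragm, 1032 CPM in mdx5cv diaphragm, 483 CPM in mdx5cv/Ccr2-/- quadriceps and 574 CPM in mdx5cv quadriceps. The diaphragm libraries were thus the higher pair, with little between the genotypes. Sfrp1 alone made up 632 and 615 CPM of these sums in mdx5cv/Ccr2-/- and mdx5cv diaphragm. In mdx5cv/Ccr2-/- and mdx5cv quadriceps it made up 176 and 216 CPM, so the gap between muscles in the sum is mostly that of Sfrp1. At least 1 of the 8 was detected in 92.2% and 87.4% of FAP/fibroblast-like cells of mdx5cv/Ccr2-/- and mdx5cv diaphragm, and in 76.5% and 75.3% of those of mdx5cv/Ccr2-/- and mdx5cv quadriceps.

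**Figure D1:**
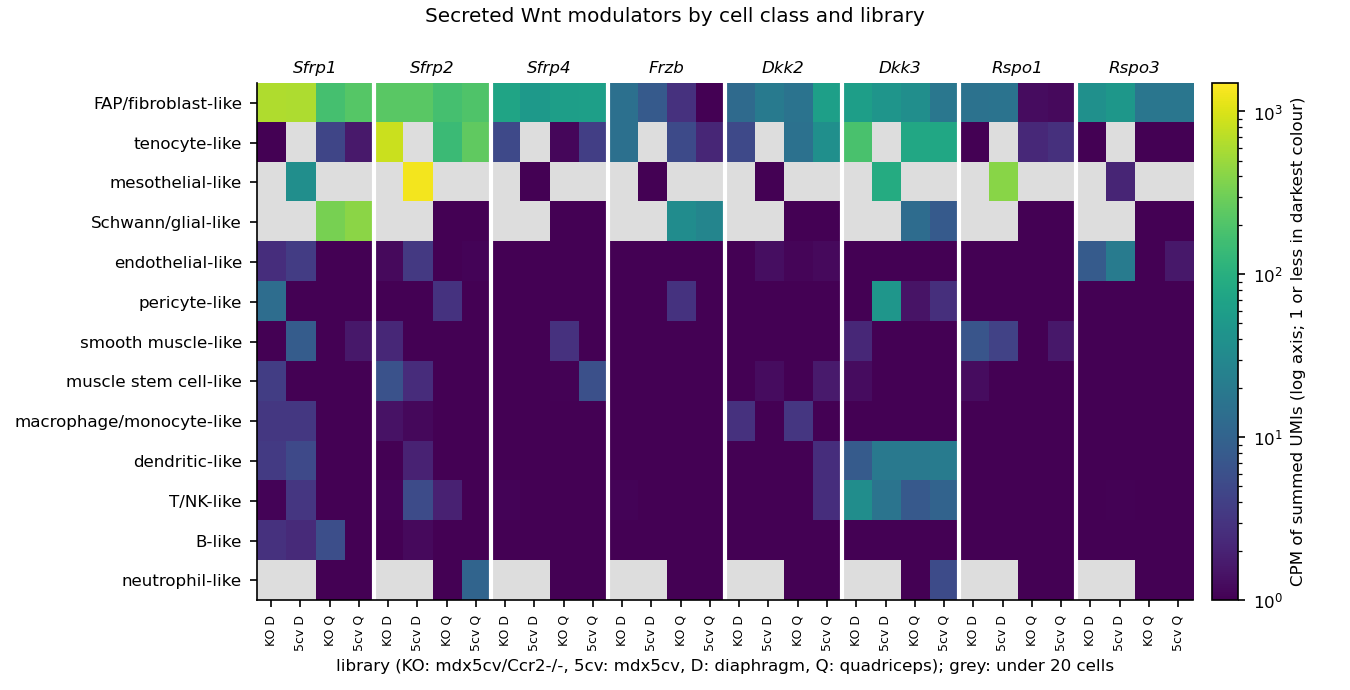
Level of each gene (columns, 4 libraries each) in 13 cell classes (rows), as CPM of UMIs summed over the cells of a class on a logarithmic colour axis; grey marks fewer than 20 cells. KO is mdx5cv/Ccr2-/-, 5cv is mdx5cv, D is diaphragm and Q is quadriceps. The FAP/fibroblast-like row is bright for most genes, and further sources show as isolated patches, such as 1313 CPM of Sfrp2 in mesothelial-like cells of mdx5cv diaphragm.

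CPM here are a gene's UMIs scaled to the total UMIs of that class and library. They are not divided by transcript length, so levels are compared for 1 gene at a time. A gene counted as measured in FAP/fibroblast-like cells with at least 20 CPM on average and 50 UMIs over the 4 libraries, which 5815 genes passed, among them 6 of the 8. Frzb and Rspo1 did not pass and are described without a call. A measured gene was called where the ratio of CPM passed 1.5-fold and its interval excluded 1.

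Sfrp1, a Wnt-binding antagonist, had 632 CPM in mdx5cv/Ccr2-/- diaphragm, 615 CPM in mdx5cv diaphragm, 176 CPM in mdx5cv/Ccr2-/- quadriceps and 216 CPM in mdx5cv quadriceps. Both diaphragm libraries stood far above both quadriceps libraries, by 3.60-fold (3.48 to 3.72) in mdx5cv/Ccr2-/- and 2.85-fold (2.76 to 2.95) in mdx5cv. Depth favoured the quadriceps, since FAP/fibroblast-like cells had a median of 10109.5 and 6461 UMIs in mdx5cv/Ccr2-/- and mdx5cv diaphragm, against 13845 and 13193 UMIs in mdx5cv/Ccr2-/- and mdx5cv quadriceps. With each cell thinned to 3000 UMIs, leaving out shallower cells, Sfrp1 was found in 64.7% and 65.0% of FAP/fibroblast-like cells of mdx5cv/Ccr2-/- and mdx5cv diaphragm. In mdx5cv/Ccr2-/- and mdx5cv quadriceps the thinned shares were 26.4% and 29.4%. Between genotypes the Sfrp1 ratio was close to 1 in the diaphragm (1.03, 1.01 to 1.04) and 0.815 (0.779 to 0.852) in the quadriceps, neither past 1.5-fold.

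Sfrp2, which likewise binds Wnt, was the steadier gene of the pair. It had 229 CPM in mdx5cv/Ccr2-/- diaphragm, 230 CPM in mdx5cv diaphragm, 173 CPM in mdx5cv/Ccr2-/- quadriceps and 198 CPM in mdx5cv quadriceps. The ratio of mdx5cv/Ccr2-/- to mdx5cv was 0.996 (0.970 to 1.02) in the diaphragm and 0.874 (0.835 to 0.915) in the quadriceps. Diaphragm over quadriceps it was 1.33 in mdx5cv/Ccr2-/- and 1.16 in mdx5cv, below the call, but 1.78 in mdx5cv/Ccr2-/- and 1.72 in mdx5cv with every cell thinned to 3000 UMIs. Its transcripts were unevenly spread over cells: a UMI was seen in 33.2% and 30.7% of FAP/fibroblast-like cells in mdx5cv/Ccr2-/- and mdx5cv diaphragm, and in 30.2% and 27.2% of those in mdx5cv/Ccr2-/- and mdx5cv quadriceps. These shares are not matched for depth. Thinned to 3000 UMIs, they were 21.1% and 22.1% in mdx5cv/Ccr2-/- and mdx5cv diaphragm. In mdx5cv/Ccr2-/- and mdx5cv quadriceps the thinned shares were 17.5% and 13.7%.

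Sfrp4 had 71.5 CPM in mdx5cv/Ccr2-/- diaphragm, 50.1 CPM in mdx5cv diaphragm, 60.0 CPM in mdx5cv/Ccr2-/- quadriceps and 61.8 CPM in mdx5cv quadriceps. The mdx5cv/Ccr2-/- diaphragm was the highest library, 1.43-fold (1.36 to 1.51) above mdx5cv diaphragm and short of the call, whereas the quadriceps libraries were level at a ratio of 0.972 (0.896 to 1.05). Diaphragm over quadriceps, the ratio was 1.19 in mdx5cv/Ccr2-/- and 0.81 in mdx5cv. The direction in mdx5cv/Ccr2-/- turned with the processing, to 0.793 after thinning to 3000 UMIs and 0.802 in a common mix of fibroblast types.

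Frzb, also called Sfrp3, was sparse, with 15 CPM in mdx5cv/Ccr2-/- diaphragm, 8.01 CPM in mdx5cv diaphragm, 2.81 CPM in mdx5cv/Ccr2-/- quadriceps and 1.02 CPM in mdx5cv quadriceps. These rest on 683 and 402 UMIs in mdx5cv/Ccr2-/- and mdx5cv diaphragm, and on 67 and 17 UMIs in mdx5cv/Ccr2-/- and mdx5cv quadriceps. In each muscle mdx5cv/Ccr2-/- was the higher library, by 1.87-fold (1.65 to 2.12) in diaphragm and 2.76-fold (1.60 to 5.02) in quadriceps. The quadriceps ratio was 1.76 after thinning to 3000 UMIs and 1.82 in a common mix of fibroblast types. The diaphragm was higher in each genotype, by 5.34-fold (4.15 to 6.96) in mdx5cv/Ccr2-/- and 7.88-fold (4.86 to 13.7) in mdx5cv.

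Dkk2, which blocks the Lrp5 and Lrp6 co-receptors together with Kremen proteins, showed the widest genotype difference of the 6 measured genes. It had 12.4 CPM in mdx5cv/Ccr2-/- diaphragm against 20 CPM in mdx5cv diaphragm, and 16.4 CPM in mdx5cv/Ccr2-/- quadriceps against 61.4 CPM in mdx5cv quadriceps. The mdx5cv quadriceps stood apart from the other 3 libraries. The ratio of mdx5cv/Ccr2-/- to mdx5cv was 0.622 (0.560 to 0.691) in the diaphragm and 0.267 (0.237 to 0.300) in the quadriceps, lower and called in both. Thinned to 3000 UMIs, Dkk2 was found in 1.95% of mdx5cv/Ccr2-/- and 3.90% of mdx5cv FAP/fibroblast-like cells in the diaphragm, and in 4.77% of mdx5cv/Ccr2-/- and 10.7% of mdx5cv cells in the quadriceps. Diaphragm over quadriceps the ratio was 0.325 (0.298 to 0.355) in mdx5cv, called, and 0.760 (0.666 to 0.866) in mdx5cv/Ccr2-/-, not called. With libraries weighted to a common mix of fibroblast types the mdx5cv/Ccr2-/- ratio was 0.451.

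Dkk3, a divergent Dickkopf gene whose product does not act on the co-receptors as Dkk2 does, ran the opposite way between genotypes. It had 61.0 CPM in mdx5cv/Ccr2-/- diaphragm against 45.3 CPM in mdx5cv diaphragm, and 36.9 CPM in mdx5cv/Ccr2-/- quadriceps against 18.1 CPM in mdx5cv quadriceps. The ratio was 2.03 (1.78 to 2.33) in the quadriceps, called higher, and 1.35 (1.27 to 1.42) in the diaphragm, not called. Both diaphragm libraries exceeded both quadriceps libraries, by 1.65-fold (1.53 to 1.79) in mdx5cv/Ccr2-/- and 2.50-fold (2.22 to 2.83) in mdx5cv. The mdx5cv/Ccr2-/- call was lost on thinning to 3000 UMIs, at 1.33-fold.

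The R-spondins, agonists of the pathway, differed more between muscles than between genotypes. Rspo1 had 15.6 CPM in mdx5cv/Ccr2-/- diaphragm and 16 CPM in mdx5cv diaphragm (712 and 801 UMIs), but 1.26 CPM in mdx5cv/Ccr2-/- quadriceps and 1.20 CPM in mdx5cv quadriceps (30 and 20 UMIs). The diaphragm was 12.4-fold (8.62 to 18.5) higher in mdx5cv/Ccr2-/- and 13.3-fold (8.58 to 22.0) higher in mdx5cv. The genotype ratios were 0.979 (0.884 to 1.08) in the diaphragm and 1.05 (0.578 to 1.95) in the quadriceps. Rspo3 had 39.8 CPM in mdx5cv/Ccr2-/- diaphragm, 47.9 CPM in mdx5cv diaphragm, 17.5 CPM in mdx5cv/Ccr2-/- quadriceps and 17.8 CPM in mdx5cv quadriceps. Again the 2 diaphragm libraries were the high ones, 2.27-fold (2.04 to 2.53) in mdx5cv/Ccr2-/- and 2.70-fold (2.39 to 3.05) in mdx5cv, and the genotype ratio was 0.832 (0.782 to 0.884) in the diaphragm and 0.987 (0.849 to 1.15) in the quadriceps.

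**Figure D2:**
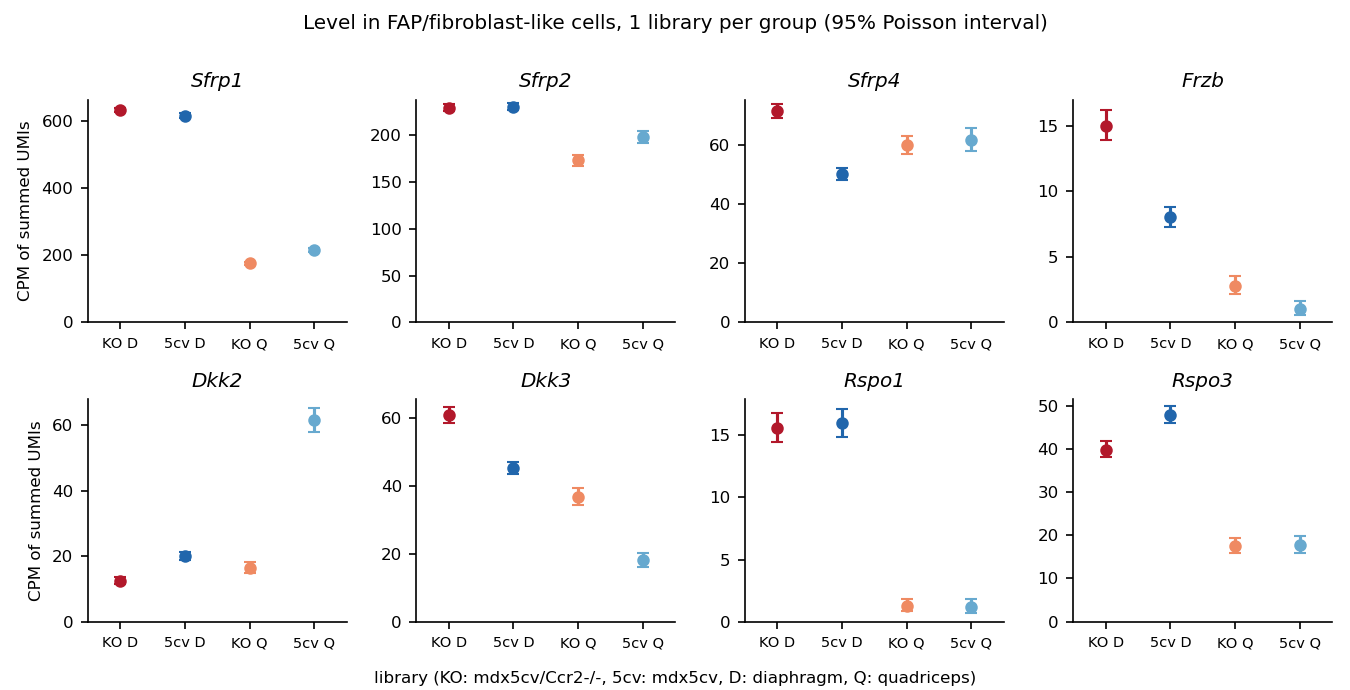
CPM of each gene in FAP/fibroblast-like cells (vertical axis, from 0) by library (horizontal axis); a point is 1 library and its bar the exact Poisson 95% interval. Sfrp1, Frzb, Dkk3, Rspo1 and Rspo3 are higher in both diaphragm than in both quadriceps libraries, while Dkk2 is high in mdx5cv quadriceps alone at 61.4 CPM.

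In counts, 1 of the 6 measured genes was called higher and 1 lower in mdx5cv/Ccr2-/- quadriceps fibroblasts, where 3.22% and 3.42% of the 5815 measured genes were. In the diaphragm none was called higher and 1 lower, beside 0.499% and 0.774% of all measured genes. Dkk2 was the gene called lower in both muscles, as were 0.292% of all measured genes, and no member was called higher in both, beside 0.206%. Between muscles, 3 of the 6 (Sfrp1, Dkk3 and Rspo3) were called higher and none lower in mdx5cv/Ccr2-/- diaphragm, beside 8.12% and 6.67% of all measured genes. In mdx5cv diaphragm the same 3 were called higher and Dkk2 lower, beside 7.65% and 8.01%, while 5.14% of all measured genes were called higher and 3.78% lower in both genotypes. The median log2 ratio of the 6 for diaphragm over quadriceps was 0.53 in mdx5cv/Ccr2-/- and 0.67 in mdx5cv, with -0.04 and -0.03 over all measured genes. The members and the Wnt list used below were chosen with earlier results of these data known. Their counts and medians are therefore descriptive. Over all measured genes 472 were called higher and 388 lower in mdx5cv/Ccr2-/- diaphragm, but 577 and 307 with TMM scaling; in mdx5cv the split was 445 and 466, but 567 and 359 with TMM scaling. The counts of called members did not change under it.

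**Figure D3:**
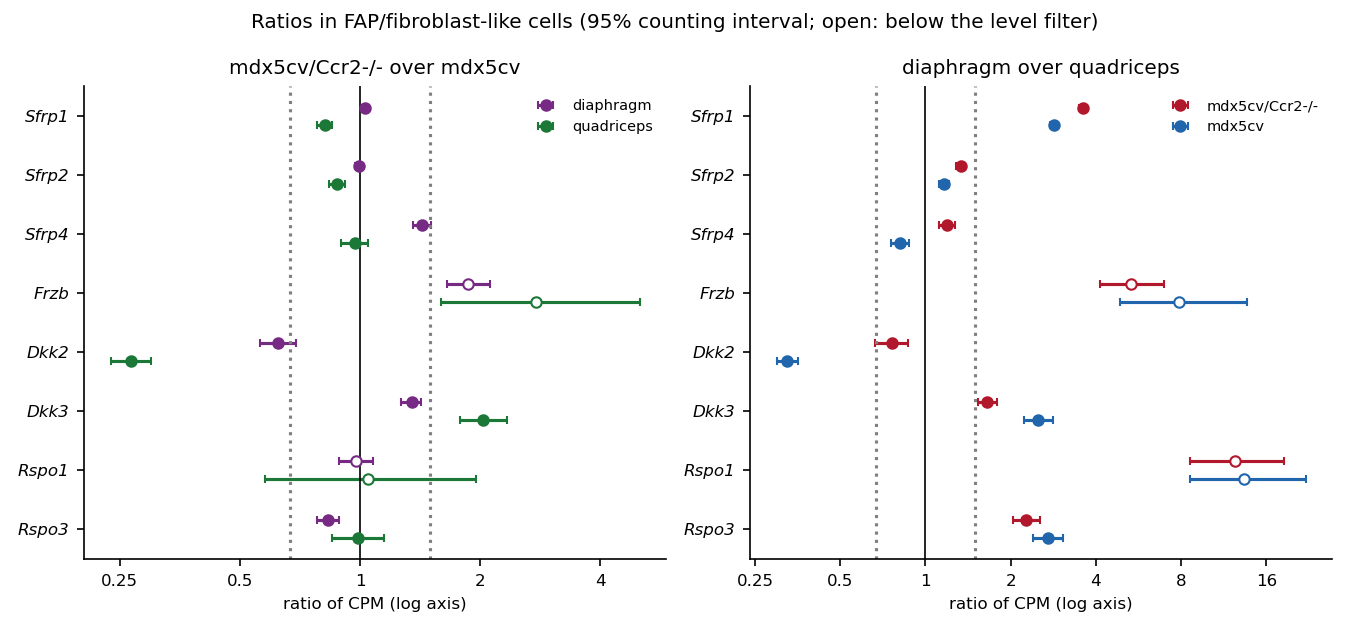
Ratio of CPM in FAP/fibroblast-like cells (horizontal, logarithmic axis) of mdx5cv/Ccr2-/- over mdx5cv by muscle (left) and of diaphragm over quadriceps by genotype (right), with 95% counting intervals; dotted lines mark 1.5-fold, and open points are genes below the level filter. Dkk2 lies left of 1 in both muscles at 0.622 and 0.267, and Rspo1 reaches 12.4 and 13.3 between muscles.

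FAP/fibroblast-like cells are not uniform, and their make-up differed between libraries. Cells with markers of activated, matrix-producing fibroblasts (Cthrc1/Tnc gate) made up 7.63% of them in mdx5cv/Ccr2-/- diaphragm, 5.86% in mdx5cv diaphragm, 41.5% in mdx5cv/Ccr2-/- quadriceps and 15.1% in mdx5cv quadriceps. Cells of the resting Inmt/Hsd11b1 gate made up 44.6% in mdx5cv/Ccr2-/- diaphragm, 45.3% in mdx5cv diaphragm, 10.7% in mdx5cv/Ccr2-/- quadriceps and 20.1% in mdx5cv quadriceps. Adventitial progenitors (Pi16/Dpp4 gate) made up between 7.53% and 10.8% and Penk/Gdf10 cells between 5.10% and 12.7%. Each gate was set against the other FAP/fibroblast-like cells of its own library, so that genotype and library were shared. Depth per cell was not shared. Cthrc1/Tnc cells had a median of 19789 and 14334 UMIs in mdx5cv/Ccr2-/- and mdx5cv diaphragm, and 19691.5 and 23624 in mdx5cv/Ccr2-/- and mdx5cv quadriceps. For Inmt/Hsd11b1 cells the medians were 9400.5, 5896, 10521 and 10896 UMIs in the same order. The gate ratios below are not thinned to a common depth.

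Of the 4 gates, Penk/Gdf10 had the most members called higher in every library. Sfrp1, Dkk2 and Rspo3 were called higher there in all 4 libraries, as were 0.654% of measured genes, and no member was called lower in all 4, beside 0.619%. Sfrp1 had 1127 CPM inside the gate and 570 CPM outside it in mdx5cv/Ccr2-/- diaphragm, 1077 and 554 CPM in mdx5cv diaphragm, 429 and 165 CPM in mdx5cv/Ccr2-/- quadriceps and 520 and 176 CPM in mdx5cv quadriceps. Rspo3 was 2.86-fold and 2.99-fold higher inside the gate in mdx5cv/Ccr2-/- and mdx5cv diaphragm, and 2.63-fold and 3.27-fold in mdx5cv/Ccr2-/- and mdx5cv quadriceps. Dkk2 was 3.08-fold and 4.57-fold higher in mdx5cv/Ccr2-/- and mdx5cv diaphragm, and 3.97-fold and 1.70-fold in mdx5cv/Ccr2-/- and mdx5cv quadriceps. The 3 genes act in different ways, Sfrp1 and Dkk2 as antagonists and Rspo3 as an agonist.

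The Pi16/Dpp4 gate marks adventitial fibroblasts, held to be the least differentiated of muscle. There Sfrp4 was the gene called higher in all 4 libraries, beside 1.57% of measured genes, and Sfrp1 the gene called lower, beside 0.791%. Sfrp4 had 163 CPM inside and 61.3 CPM outside the gate in mdx5cv/Ccr2-/- diaphragm, 122 and 42.8 CPM in mdx5cv diaphragm, 339 and 43.4 CPM in mdx5cv/Ccr2-/- quadriceps, and 207 and 46.5 CPM in mdx5cv quadriceps. The excess was larger in the quadriceps, at 7.81-fold in mdx5cv/Ccr2-/- and 4.45-fold in mdx5cv, than in the diaphragm, at 2.65-fold in mdx5cv/Ccr2-/- and 2.86-fold in mdx5cv. Sfrp1 in the gate was 0.498 and 0.583 times the level outside it in mdx5cv/Ccr2-/- and mdx5cv diaphragm, and 0.478 and 0.504 times in mdx5cv/Ccr2-/- and mdx5cv quadriceps.

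In the Cthrc1/Tnc gate Dkk2 was called lower in all 4 libraries, beside 4.22% of measured genes, and none was called higher in all 4, beside 1.72%. Dkk2 had 0.653 CPM inside against 14.3 CPM outside the gate in mdx5cv/Ccr2-/- diaphragm, and 2.57 against 22.3 CPM in mdx5cv diaphragm. In the quadriceps it had 8.74 against 26.5 CPM in mdx5cv/Ccr2-/- and 12.8 against 76.1 CPM in mdx5cv. Sfrp1 was 0.384 and 0.407 times the outside level in mdx5cv/Ccr2-/- and mdx5cv diaphragm, but 0.715 and 0.711 times in mdx5cv/Ccr2-/- and mdx5cv quadriceps, where it missed the call. Sfrp4 was called lower in the gate in 3 libraries, at 0.569 in mdx5cv diaphragm, 0.200 in mdx5cv/Ccr2-/- quadriceps and 0.333 in mdx5cv quadriceps, whereas in mdx5cv/Ccr2-/- diaphragm the ratio was 1.38. Rspo3 was called lower in 3 as well, at 0.340 in mdx5cv/Ccr2-/- diaphragm, 0.148 in mdx5cv diaphragm and 0.552 in mdx5cv/Ccr2-/- quadriceps, against 1.07 in mdx5cv quadriceps. Dkk3 differed little with activation, between 1.16-fold and 1.32-fold higher inside the gate.

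The Inmt/Hsd11b1 gate had no member called the same way in all 4 libraries, beside 0.585% of measured genes called higher and 0.964% lower. Dkk2 was 2.51-fold and 2.63-fold higher in that gate in mdx5cv/Ccr2-/- and mdx5cv quadriceps, yet 0.653 and 0.471 times the outside level in mdx5cv/Ccr2-/- and mdx5cv diaphragm. In mdx5cv quadriceps the gate held 128 CPM of Dkk2, its highest level among the fibroblast gates of the 4 libraries.

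**Figure D4:**
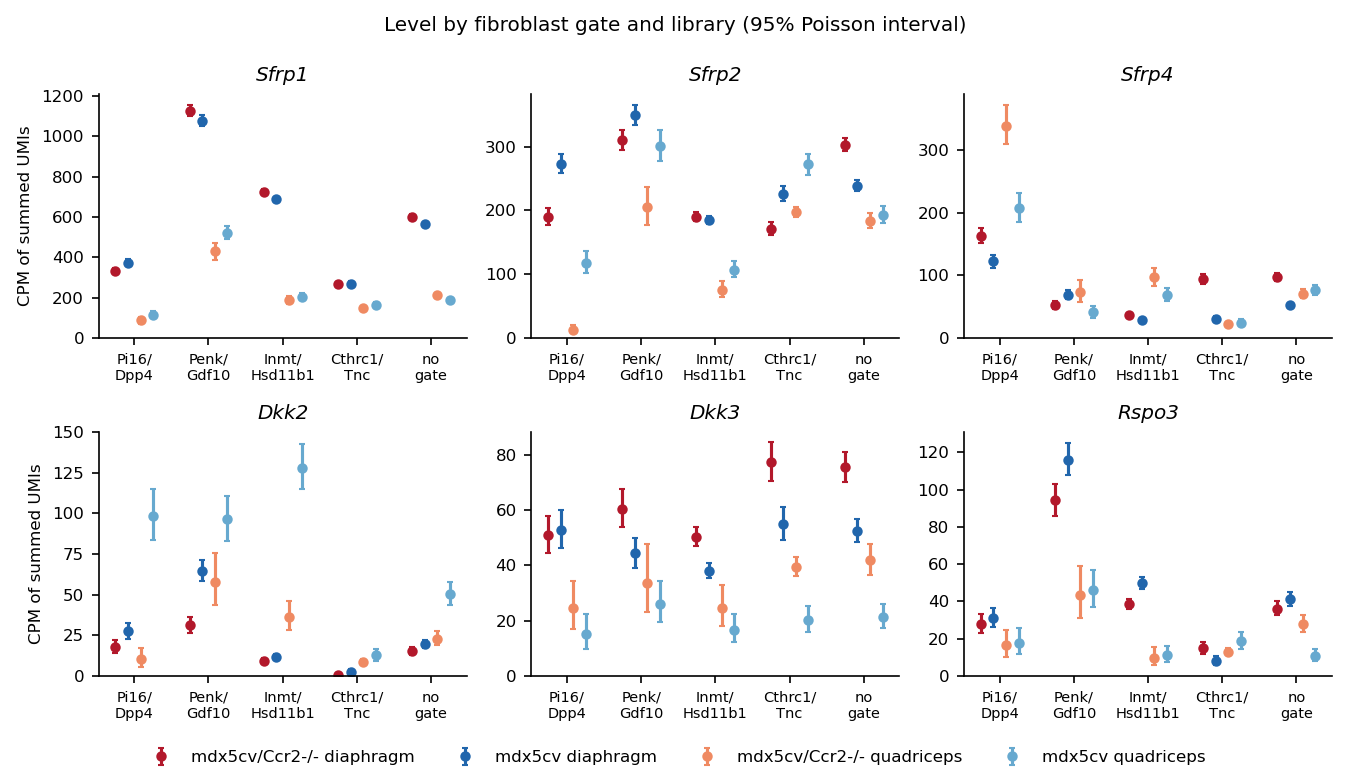
CPM of the 6 measured genes (vertical axes, from 0) in 4 fibroblast gates and in cells of no gate (horizontal axis), 1 point per library with its exact Poisson 95% interval. Sfrp4 peaks in the Pi16/Dpp4 gate at 339 CPM in mdx5cv/Ccr2-/- quadriceps, and Sfrp1 and Rspo3 peak in the Penk/Gdf10 gate.

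Dkk2 was low in activated fibroblasts, which were more frequent in mdx5cv/Ccr2-/- than in mdx5cv quadriceps. How far this mix accounts for its genotype ratio was not tested. Genotypes were also compared gate by gate, wherever both libraries had at least 50 cells and together at least 10 UMIs of the gene. Dkk2 was lower in mdx5cv/Ccr2-/- in all 5 such groups of quadriceps fibroblasts, with ratios of 0.106 to 0.682, and in all 6 of diaphragm fibroblasts, with ratios of 0.236 to 0.795. The 0.236 is that of the interferon gate, from 2 against 14 UMIs, with an interval of 0.026 to 1.03. The Cthrc1/Tnc gate of the diaphragm also rests on few UMIs, 4 in mdx5cv/Ccr2-/- against 15 in mdx5cv. Gates are parts of the same libraries, here and below, so they do not replicate one another. In the Pi16/Dpp4 gate of the quadriceps Dkk2 had 10.4 CPM in mdx5cv/Ccr2-/- against 98.2 CPM in mdx5cv (14 and 156 UMIs). In the Inmt/Hsd11b1 gate it had 36.6 against 128 CPM (71 and 337 UMIs). The low counts put the lowest quadriceps ratio, 0.106, between 0.0568 and 0.184. With all libraries weighted to 1 common mix of gates, the genotype ratio of Dkk2 was 0.346 in the quadriceps and 0.622 in the diaphragm.

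Dkk3 was higher in mdx5cv/Ccr2-/- in all 5 groups of quadriceps fibroblasts (1.29-fold to 1.97-fold), although the intervals of the Pi16/Dpp4, Penk/Gdf10 and Inmt/Hsd11b1 gates included 1. It was also higher in 5 of 6 groups of diaphragm fibroblasts, the Pi16/Dpp4 gate being the exception at 0.963. In a common mix its ratio was 1.69 in the quadriceps and 1.36 in the diaphragm. For Sfrp4 the gates did not move together: in the diaphragm its ratio was 3.13 (94.0 CPM in mdx5cv/Ccr2-/- against 30.0 CPM in mdx5cv) in the Cthrc1/Tnc gate and 0.764 in the Penk/Gdf10 gate. In the quadriceps the common mix gave Sfrp4 a ratio of 1.36, in place of 0.972.

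Sfrp2 was within 1.5-fold between genotypes in fibroblasts as a whole, but not in adventitial cells of the quadriceps. There it had 12.7 CPM in mdx5cv/Ccr2-/- against 118 CPM in mdx5cv (17 and 188 UMIs in 118 and 114 cells), a ratio of 0.107 (lower bound 0.0611). In the same gate of the diaphragm the values were 190 CPM in mdx5cv/Ccr2-/- and 273 CPM in mdx5cv, a ratio of 0.695. In the other quadriceps groups the Sfrp2 ratio ran up to 0.951 (0.866 to 1.04) and stayed below 1 in each of the 5. Frzb was higher in mdx5cv/Ccr2-/- in all 6 diaphragm groups, by 1.57-fold to 2.14-fold.

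**Figure D5:**
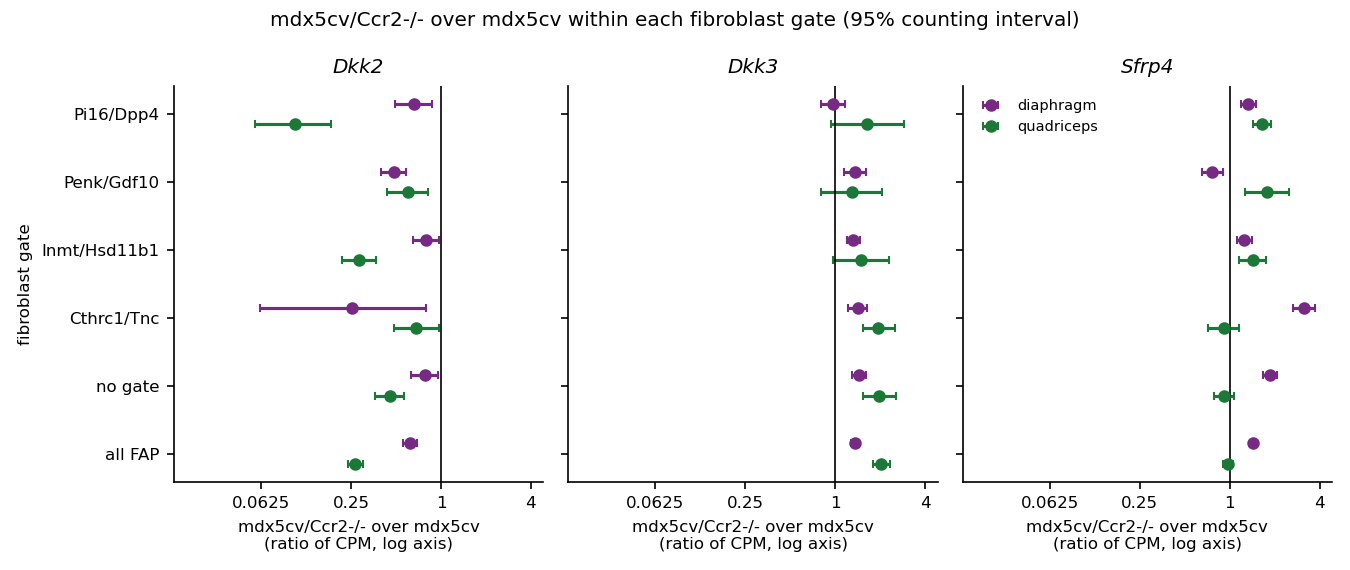
Ratio of CPM of mdx5cv/Ccr2-/- over mdx5cv (horizontal, logarithmic axis) for Dkk2, Dkk3 and Sfrp4 within each fibroblast gate and over all FAP/fibroblast-like cells (rows), by muscle, with 95% counting intervals. Every Dkk2 point lies left of 1, and Sfrp4 ranges from 0.764 to 3.13 in the diaphragm gates drawn.

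The muscle difference also held gate by gate for some members. Sfrp1 was higher in the diaphragm in all 5 groups of mdx5cv/Ccr2-/- fibroblasts (1.77-fold to 3.88-fold) and all 6 of mdx5cv fibroblasts (1.64-fold to 3.37-fold). Rspo1 was higher in the diaphragm in 5 of 5 groups of mdx5cv/Ccr2-/- fibroblasts and in 5 of 5 of mdx5cv fibroblasts, on few quadriceps UMIs. In mdx5cv/Ccr2-/- the Penk/Gdf10 gate had 111 UMIs in diaphragm against 0 in quadriceps. That is 22 CPM against a floor of 3.17 CPM, the level that 3 UMIs would give. The Inmt/Hsd11b1 gate of mdx5cv/Ccr2-/- had 248 against 1 UMI, an interval of 4.76-fold to 1061-fold. In mdx5cv the Cthrc1/Tnc gate had 33 against 1 UMI, an interval of 3.69-fold to 898-fold. The lowest ratios of Rspo1 were 6.53 (2.72 to 20.5) in the Pi16/Dpp4 gate of mdx5cv/Ccr2-/- and 9.07 (3.5 to 33.5) in the Inmt/Hsd11b1 gate of mdx5cv. Rspo3 was higher in 5 of 5 groups of mdx5cv/Ccr2-/-, the lowest at 1.14 (0.877 to 1.48), and in 5 of 6 of mdx5cv fibroblasts, the Cthrc1/Tnc gate being the exception at 0.421. Dkk2, in contrast, was lower in the diaphragm in 4 of 5 groups of mdx5cv/Ccr2-/- fibroblasts (not the Pi16/Dpp4 gate, at 1.72, 0.971 to 3.29) and in 5 of 6 of mdx5cv fibroblasts (not the Ccl7/Ptx3 gate, at 2.29).

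Within FAP/fibroblast-like cells thinned to 3000 UMIs, co-detection was counted for all pairs of members, and a selection of pairs is given. Of cells with Sfrp1 in mdx5cv/Ccr2-/- diaphragm 13.5% had Rspo3, against 5.54% of cells without Sfrp1, and the shares were 16% and 4.81% in mdx5cv diaphragm. In mdx5cv/Ccr2-/- quadriceps they were 6.19% and 3.24%, and in mdx5cv quadriceps 8.56% and 3.86%. In all 4 libraries, then, a cell with Sfrp1 had Rspo3 more often than one without. Cells with both Sfrp2 and Dkk2 numbered 32 in mdx5cv/Ccr2-/- diaphragm, 107 in mdx5cv diaphragm, 30 in mdx5cv/Ccr2-/- quadriceps and 28 in mdx5cv quadriceps. Those are 2.02 and 2.09 times the number that independent detection would give in mdx5cv/Ccr2-/- and mdx5cv diaphragm, and 2.45 and 1.93 times in mdx5cv/Ccr2-/- and mdx5cv quadriceps. Sfrp1 and Sfrp4, with unlike gates, met at 0.934 and 0.891 times that number in mdx5cv/Ccr2-/- and mdx5cv diaphragm, and 1.31 and 0.982 times in mdx5cv/Ccr2-/- and mdx5cv quadriceps. An excess was not particular to the pairs named first. Sfrp1 and Sfrp2 met at 1.21 and 1.25 times that number in mdx5cv/Ccr2-/- and mdx5cv diaphragm, and 1.96 and 1.55 times in mdx5cv/Ccr2-/- and mdx5cv quadriceps. Sfrp4 and Rspo3 fell below it in all 4 libraries, at 0.796, 0.643, 0.83 and 0.46 times in the same order. Sfrp4 and Dkk2 were above it in all 4, at 3.62, 3.14, 1.4 and 2.14 times in that order. Cells of a library share their depth and gates, so these figures are descriptive.

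Outside fibroblasts, members were found in a few further classes. Mesothelial-like cells, the lining of the diaphragm, numbered 8 in mdx5cv/Ccr2-/- diaphragm, 83 in mdx5cv diaphragm and 0 in both quadriceps libraries. Rspo1 had 312 CPM in those of mdx5cv/Ccr2-/- and 404 CPM in those of mdx5cv, and was detected in 75% and 84.3% of the cells in mdx5cv/Ccr2-/- and mdx5cv diaphragm. Sfrp2 had 476 CPM in mdx5cv/Ccr2-/- and 1313 CPM in mdx5cv mesothelial-like cells, and Dkk3 65.7 CPM in mdx5cv/Ccr2-/- and 90.8 CPM in mdx5cv. Sfrp4, Frzb and Dkk2 had no UMI in the 83 mesothelial-like cells of mdx5cv diaphragm, which allows up to 4.35% of cells with a UMI (upper exact bound). Of all Rspo1 UMIs, FAP/fibroblast-like cells still held 95.1% and 79.8% in mdx5cv/Ccr2-/- and mdx5cv diaphragm.

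Schwann/glial-like cells were a further source of Sfrp1, with 171 CPM in the 8 cells of mdx5cv/Ccr2-/- diaphragm, 481 CPM in the 9 of mdx5cv diaphragm, 332 CPM in the 50 of mdx5cv/Ccr2-/- quadriceps and 417 CPM in the 46 of mdx5cv quadriceps. In the quadriceps the glial level was above that of fibroblasts, at 176 and 216 CPM in mdx5cv/Ccr2-/- and mdx5cv. Frzb reached 35.4 CPM (8 UMIs) and 28.0 CPM (7 UMIs) in glial cells of mdx5cv/Ccr2-/- and mdx5cv quadriceps. Sfrp2, Sfrp4, Dkk2, Rspo1 and Rspo3 had no UMI in the glial cells of either quadriceps library.

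Tenocyte-like cells, found mostly in the quadriceps (191 in mdx5cv/Ccr2-/-, 169 in mdx5cv), expressed Sfrp2, Dkk2 and Dkk3. Sfrp2 had 145 CPM in those of mdx5cv/Ccr2-/- against 253 CPM in mdx5cv, a ratio of 0.571. Dkk2 had 15.4 CPM in mdx5cv/Ccr2-/- against 38.3 CPM in mdx5cv (27 and 69 UMIs), a ratio of 0.403 on the same side of 1 as in fibroblasts. Dkk3 had 81.1 CPM in mdx5cv/Ccr2-/- and 77.7 CPM in mdx5cv, a ratio of 1.04.

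Rspo3 was the member found in lymphatic endothelium. It had 61.1 CPM in 101 lymphatic cells of mdx5cv/Ccr2-/- diaphragm and 78.8 CPM in 223 of mdx5cv diaphragm, while 29 and 20 such cells of mdx5cv/Ccr2-/- and mdx5cv quadriceps had 23.1 and 80.7 CPM (3 and 10 UMIs). Over all endothelial-like cells Rspo3 had 8.09 CPM in mdx5cv/Ccr2-/- diaphragm against 0.640 CPM in mdx5cv/Ccr2-/- quadriceps, and 21.0 against 1.62 CPM in mdx5cv. Lymphatic cells made up 11.5% and 23.9% of endothelial-like cells in mdx5cv/Ccr2-/- and mdx5cv diaphragm, against 1.24% and 1.44% in mdx5cv/Ccr2-/- and mdx5cv quadriceps. How far these shares account for the endothelial ratio was not tested. Dkk2 was seen in arterial endothelium, with 13 UMIs (15 CPM) in mdx5cv/Ccr2-/- quadriceps and 6 UMIs (9.32 CPM) in mdx5cv quadriceps.

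In blood-derived cells Dkk3 was found in T/NK-like and dendritic-like cells but hardly in macrophage/monocyte-like cells. T/NK-like cells had 36.0 CPM in mdx5cv/Ccr2-/- diaphragm, 16.8 CPM in mdx5cv diaphragm, 7.74 CPM in mdx5cv/Ccr2-/- quadriceps and 10.3 CPM of Dkk3 in mdx5cv quadriceps. The diaphragm values rest on 34 UMIs in mdx5cv/Ccr2-/- and 16 in mdx5cv, and those of each quadriceps library on 4. Thinned to 3000 UMIs, 9.88% and 4.71% of those cells had Dkk3 in mdx5cv/Ccr2-/- and mdx5cv diaphragm, while in macrophage/monocyte-like cells, taken as the background, the shares were 0% and 0.119% in mdx5cv/Ccr2-/- and mdx5cv diaphragm. The quadriceps shares of T/NK-like cells, 1% in mdx5cv/Ccr2-/- and 1.85% in mdx5cv, each rest on 1 cell. For Dkk3 dendritic-like cells had 8.18 CPM in mdx5cv/Ccr2-/- diaphragm, 19.3 CPM in mdx5cv diaphragm, 19.5 CPM in mdx5cv/Ccr2-/- quadriceps and 21.1 CPM in mdx5cv quadriceps. In macrophage/monocyte-like cells no member exceeded 3.28 CPM in any library. Dkk2 there had 2.87 CPM in mdx5cv/Ccr2-/- against 0.797 CPM in mdx5cv diaphragm and 3.14 CPM in mdx5cv/Ccr2-/- against 0.491 CPM in mdx5cv quadriceps (37 and 9 UMIs), the reverse of its order in fibroblasts. The thinned shares were 0.728% in mdx5cv/Ccr2-/- and 0.238% in mdx5cv diaphragm, and 0.605% in mdx5cv/Ccr2-/- and 0.297% in mdx5cv quadriceps, with overlapping intervals.

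The genes most like each member were taken as those with the highest Pearson correlation of log2(CPM + 5) over 37 points, each 1 class in 1 library with at least 50 cells, among 11309 genes with markers left out. The points share 13 classes and 4 libraries, so the values are descriptive. Sfrp1 was closest to Lsamp (0.95), Nfasc and Bmper, and Sfrp2 to Ccbe1 (0.97), Ltbp2 and Fbln1. For Sfrp4 they were Dpep1 (0.94), Slc1a3 and Scara5, and for Frzb Negr1 (0.93), Aspa and Nfasc. Dkk2 was closest to Dnm1 (0.93), Mmp3 and Fbln7, and Dkk3 to Ust (0.83), Lrrn2 and Igfbp6. Rspo1 followed 5033428I22Rik (0.99), Wt1 and Prlr, and Rspo3 followed Pcsk6 (0.89), Scara5 and Lbp. Mesothelial-like cells entered as 1 point only, that of mdx5cv diaphragm. Rspo1 had 404 CPM there, against 16 CPM in FAP/fibroblast-like cells, the next class of that library. How far the Rspo1 values rest on this point was not tested.

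The wider pathway was followed with 62 other Wnt genes, of which 10 were measured in FAP/fibroblast-like cells. These were the antagonist receptor Kremen1, the ligand Wnt5a, the Wnt carrier Wls, the receptors Fzd1, Fzd2, Fzd4 and Fzd8, the co-receptor Lrp6, and the Wnt receptors Ror1 and Ryk. In mdx5cv/Ccr2-/- against mdx5cv quadriceps 1 of the 10 was called higher and none lower, beside 3.22% and 3.42% of all measured genes. In the diaphragm none was called either way, beside 0.499% higher and 0.774% lower. The called gene was Fzd8, at 39.1 against 19.2 CPM, a ratio of 2.04 (1.79 to 2.32). Its diaphragm values were 18.8 CPM in mdx5cv/Ccr2-/- and 14.9 CPM in mdx5cv. The median log2 ratio of the 10 was 0.20 in the quadriceps and 0.18 in the diaphragm, with 0.04 over all measured genes in both.

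Between muscles 2 of the 10 were called higher and none lower in the diaphragm of both genotypes, beside 5.14% and 3.78% of all measured genes. Wnt5a, a ligand of non-canonical signalling, had 88.8 CPM in diaphragm against 31.9 CPM in quadriceps of mdx5cv/Ccr2-/-, and 89.9 against 47.4 CPM in mdx5cv, ratios of 2.78 and 1.90. Fzd4 had 92.5 against 44.4 CPM in mdx5cv/Ccr2-/- and 80.6 against 43.7 CPM in mdx5cv, ratios of 2.08 and 1.84. Fzd8 was called lower in mdx5cv/Ccr2-/- diaphragm, at 0.481 times the quadriceps level. The other 7 were called in neither genotype.

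In other classes, 3 list genes were called the same way in both genotypes. Wls in endothelial-like cells had 41.4 CPM in diaphragm against 24.8 CPM in quadriceps of mdx5cv/Ccr2-/- (1.67, 1.38 to 2.02) and 54.3 against 21.0 CPM in mdx5cv (2.59, 2.07 to 3.25), where 2.38% of genes measured in that class were called higher in both. Ror1 in muscle stem cell-like cells had 24.2 CPM in diaphragm against 41.0 CPM in quadriceps of mdx5cv/Ccr2-/- (19 and 78 UMIs; 0.591, 0.338 to 0.986). In mdx5cv it had 20.3 against 35.8 CPM (32 and 42 UMIs; 0.565, 0.345 to 0.917), and 1.29% of genes measured there were called lower in both. Dkkl1, a Dickkopf-like gene, had 40.2 CPM in T/NK-like cells of the diaphragm against 15.5 CPM in the quadriceps of mdx5cv/Ccr2-/- (38 and 8 UMIs; 2.60, 1.19 to 6.45). In mdx5cv it had 37.9 against 7.76 CPM (36 and 3 UMIs; 4.88, 1.54 to 24.8), where 1.7% of measured genes were called higher in both. The Ror1 and Dkkl1 calls thus rest on few UMIs.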

How the data were processed

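Raw UMI counts by gene and barcode were deposited for 4 libraries. Per the file headers they came from Cell Ranger 6.1.2, and the submitters' processing notes name the build mm10. The sources used here state neither annotation release, intron setting nor cell-calling rule. Of 33554 barcodes, those kept had at least 500 UMIs and 300 genes with no more than 15% of UMIs mitochondrial, and 2342 top-scoring doublets (Scrublet in scanpy 1.11.5) were removed at 0.8% per 1000 barcodes, an assumed rate. A cell took the class with the largest share of its markers detected, given at least 3 markers and no unrelated class above 75% of that share; fibroblast and endothelial gates needed 2 markers.

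UMIs were summed per library and class (Python 3.11.15, numpy 2.4.6, pandas 2.3.3) and scaled to CPM. Ratios carry exact conditional binomial intervals, CPM exact Poisson intervals and shares exact binomial (Clopper-Pearson) intervals (scipy 1.17.1). These treat UMIs as independent and cover counting error only. The ratio step was tested on simulated data. The members, gene lists and markers were chosen with earlier results of these data known. Named genes were the 8 members, measured genes of the Wnt list, list genes called the same way in both muscles or genotypes in other classes, and the 3 genes most like each member. Alternatives covered TMM scaling (edgeR 4.0.16 in R 4.3.3, used for its scaling factors only), doublets, cell filters, gates, cell weighting, thinning, shared barcodes, the level filter, the fold and the mix of fibroblast gates. Figures were drawn with matplotlib 3.10.9.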

Additional observations from a re-analysis of the deposited data

How the results depend on the processing

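FAP/fibroblast-like cells stayed the largest source of all 8 genes under the 5 alternatives run for it, and the counts of members called within a fibroblast gate did not change under the 5 run for them. Without the level filter, Frzb and Rspo1 enter: called members became 2 higher in mdx5cv/Ccr2-/- quadriceps and 1 higher in mdx5cv/Ccr2-/- diaphragm, and 5 higher in the diaphragm of each genotype. Over all 22169 genes then tested, 1061 and 430 were called higher in mdx5cv/Ccr2-/- quadriceps and diaphragm, and 1647 and 1696 higher in diaphragm of mdx5cv/Ccr2-/- and mdx5cv. Called past 2-fold, 0 members were lower in mdx5cv/Ccr2-/- diaphragm, beside 8 of all 5815 measured genes. In mdx5cv/Ccr2-/- 1 member was lower in diaphragm than quadriceps with cells weighted equally, thinned, or in a common mix of gates. Over all measured genes 374 of 5863, 398 of 5824 and 242 of 5797 were lower under these settings, in that order. In mdx5cv/Ccr2-/- 4 members instead of 3 were higher with equal weights or the common mix, beside 405 and 278 of all measured genes. In mdx5cv 4 members were higher when thinned, beside 473 of 5824 genes. Of the Wnt list in the quadriceps, 1 gene was lower in mdx5cv/Ccr2-/- with TMM or equal weights, and 3 were higher when thinned. Over all measured genes 213 of 5814 were lower with TMM and 172 of 5863 with equal weights. When thinned, 211 of 5824 were higher. Without the filter 10 genes of the list were higher and 4 lower in the quadriceps, and 3 higher and 2 lower in the diaphragm. Of the 22169 genes then tested, 869 and 546 were lower in quadriceps and diaphragm, with the higher counts given above. The cause of these shifts was not tested. Over the 8 members' ratios no called one changed sides of 1; of 288 recomputed ratios 227 stayed within the counting interval first given and 61 left it. No paired analysis was possible because each group is 1 library, and for the same reason no replicate could be left out. Low counts limit the ratios of Frzb and Rspo1 in quadriceps FAP/fibroblast-like cells, which held between 17 and 67 UMIs of either gene.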

Other observations

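Several Wnt genes below the level filter in FAP/fibroblast-like cells separated libraries, and were chosen here after their values were seen. The R-spondin gene Rspo2 had 3.65 CPM in mdx5cv/Ccr2-/- quadriceps against 0.718 CPM in mdx5cv quadriceps (87 and 12 UMIs), and 0.0659 and 0.0199 CPM in mdx5cv/Ccr2-/- and mdx5cv diaphragm (3 and 1 UMIs). The ligand Wnt16 had 5.2 CPM in mdx5cv/Ccr2-/- against 1.08 CPM in mdx5cv quadriceps (124 and 18 UMIs) and 3 UMIs in each diaphragm library. The quadriceps ratio of Wnt16, 4.83, was 2.81 in a common mix of fibroblast gates, and that of Rspo2, 5.08, was 3.67. Axin2, a general target gene of canonical Wnt signalling, had 7.16 CPM in diaphragm against 2.06 CPM in quadriceps of mdx5cv/Ccr2-/-, and 6.95 against 1.44 CPM in mdx5cv (326 against 49 UMIs in mdx5cv/Ccr2-/- and 349 against 24 in mdx5cv). Its genotype ratio was 1.03 (0.882 to 1.20) in the diaphragm and 1.43 (0.862 to 2.44) in the quadriceps. Wnt11 had 3.61 CPM in mdx5cv/Ccr2-/- against 9.87 CPM in mdx5cv quadriceps, but 15.2 CPM in mdx5cv/Ccr2-/- against 11.2 CPM in mdx5cv diaphragm.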
